A study of Mus musculus with 6 samples.

Results

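The 10 genes described here encode nutrient and stress sensors upstream of mTORC1, the kinase complex that couples growth to feeding, and parts of the complex itself. They are the sestrins Sesn1, Sesn2 and Sesn3, the arginine sensor Castor1, the GATOR1 subunit Depdc5, the stress-induced inhibitor Ddit4, the TSC complex subunit Tsc1, and Mtor, Rptor and Deptor. They were taken by gene symbol from a list, and all 10 were found among the 55471 genes of the count tables and had enough reads to be among the 13812 tested. The samples are liver libraries of male, wild-type C57BL/6J mice, an inbred laboratory strain, 3 from a 16 h fast and 3 from a 4 h fast. Each library is called a liver here, although no label ties a library to an animal. No group was fed without a fast, no allele or drug was used, and no age of the mice was given. The series is about cholesterol transport in liver.

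mTORC1 sits on the lysosome and is switched on there when amino acids and insulin are plentiful. Amino acids act through the Rag GTPases: GATOR1 turns the Rags off, GATOR2 holds GATOR1 back, and sestrins and CASTOR1 bind GATOR2 when leucine or arginine is scarce, as worked out largely in human cells. Insulin acts through the TSC complex, which keeps the GTPase RHEB inactive, and DDIT4 (also called REDD1) restrains mTORC1 through that complex. In fasted liver, low mTORC1 activity is known to go with autophagy, ketone body production and less protein and fat synthesis. The measurements here are RNA levels, and mTORC1 activity itself was not measured.

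After the 16 h fast, RNA of 3 of the 10 genes was higher: Ddit4 3.72-fold, Sesn2 2.37-fold and Rptor 1.32-fold. None was called lower, and 7 did not pass the test (by unadjusted p under 0.05, 1 was lower, and by DESeq2 none passed as lower). The test was edgeR's quasi-likelihood test with p-values adjusted over all 13812 genes and a threshold of 0.05. Over all tested genes, 18.7% passed by the same rule, 9.18% higher and 9.51% lower. The values of the 2 fasts did not overlap for 4 of the 10 genes, and for 39.4% of all tested genes. The median log2 change of the 10 genes was 0.06, against -0.028 over all tested genes. Changes are given as 16 h over 4 h throughout, levels as CPM (counts scaled to library size), and ± marks the SD of a level over 3 livers or the SE of a log2 change.

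The promoters of the 3 genes that rose are shown because these genes passed in the same direction, each as the 300 bases from 250 before to 50 after the RefSeq start site (build GRCm38.p6), written 5′ to 3′ on the strand of the gene. Capitals mark matches to any of 7 motifs of factors known to act on these genes or on fasting liver. The windows are chr4:132510407-132510706 (minus strand) for Sesn2, chr10:59951721-59952020 (minus strand) for Ddit4 and chr11:119602655-119602954 (plus strand) for Rptor.
Sesn2: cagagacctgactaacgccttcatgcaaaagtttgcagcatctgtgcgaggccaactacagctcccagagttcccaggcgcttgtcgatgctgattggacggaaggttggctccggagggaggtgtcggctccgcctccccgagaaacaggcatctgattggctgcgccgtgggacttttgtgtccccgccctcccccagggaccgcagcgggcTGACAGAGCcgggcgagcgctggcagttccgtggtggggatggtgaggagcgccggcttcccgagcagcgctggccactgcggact
Ddit4: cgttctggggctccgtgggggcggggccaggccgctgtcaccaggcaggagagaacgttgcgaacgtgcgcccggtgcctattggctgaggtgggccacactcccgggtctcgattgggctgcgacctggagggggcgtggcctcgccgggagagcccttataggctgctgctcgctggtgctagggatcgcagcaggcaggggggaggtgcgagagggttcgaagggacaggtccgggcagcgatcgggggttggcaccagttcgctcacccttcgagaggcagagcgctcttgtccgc
Rptor: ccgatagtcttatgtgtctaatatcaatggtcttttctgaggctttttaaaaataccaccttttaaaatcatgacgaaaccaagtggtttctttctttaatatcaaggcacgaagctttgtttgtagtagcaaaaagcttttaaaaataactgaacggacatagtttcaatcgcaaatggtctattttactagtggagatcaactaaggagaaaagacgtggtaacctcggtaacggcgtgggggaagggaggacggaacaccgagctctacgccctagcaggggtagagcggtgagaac
The motifs, searched on both strands, were TGATGNAA (the C/EBP-ATF composite bound by ATF4), CATG and again CATG after 6 bases of any kind (a paired core of p53 sites), ACANNNTGT (glucocorticoid receptor), TGTTTAC (FOXO), CACGTG (E-box), TGACNNNGC (antioxidant response element of NRF2) and TGACGTCA (cAMP response element). Of the 32851 windows of this length in the table, 3.97%, 0.71%, 6.85%, 3.65%, 7.15%, 12.39% and 1.79% hold these motifs in the order given. Sesn2 holds a single match, TGACAGAGC of the antioxidant element, which begins 36 bases before the start site and overlaps no other match. The windows of Ddit4 and Rptor hold none of these letters. Windows were found for 9 of the 10 genes, Sesn1 having 2 start sites, and the only other match was a FOXO motif that begins 22 bases after the upstream start of Sesn1. The Rptor window is poorer in G and C (41.7%) than those of Sesn2 (64.7%) and Ddit4 (69.0%), where the median of all windows is 52.7%.

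Library depth was between 16991034 and 25016855 gene counts after 16 h and between 15173653 and 26572532 after 4 h. The 6 hepatocyte markers, of which 2 were higher and 1 lower by the test, summed to 77990 to 88950 CPM after 16 h and 84270 to 90910 CPM after 4 h. Replicate 3 of the 4 h fast stood apart: 8 lung epithelium markers summed to 186.6 CPM there, against 5.93 to 8.44 CPM after 16 h and 5.86 and 6.66 CPM in the other 4 h libraries. Its 10 neutrophil markers summed to 15.9 CPM, against 2.40 to 5.85 CPM after 16 h and 2.64 and 2.65 CPM in the other 4 h libraries. Of 6 stellate cell and fibroblast markers 2 were lower after 16 h, and the list summed to 127 to 192 CPM after 16 h and 167 to 249 CPM after 4 h. The 4 erythroid markers, 1 of them lower by the test, summed to 51.7 to 93.0 CPM after 16 h and 142 to 165 CPM after 4 h. The 4 adipocyte markers, also with 1 lower, summed to 0.301 to 0.667 CPM after 16 h and 1.03 to 5.48 CPM after 4 h, with Lep at 0 in all libraries. No marker of the Kupffer cell, sinusoidal endothelium or cholangiocyte lists passed the test. The part of these cell types in the results was not tested. In bulk liver RNA, fewer cells of a type and less RNA per cell cannot be told apart.

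**Figure D1:**
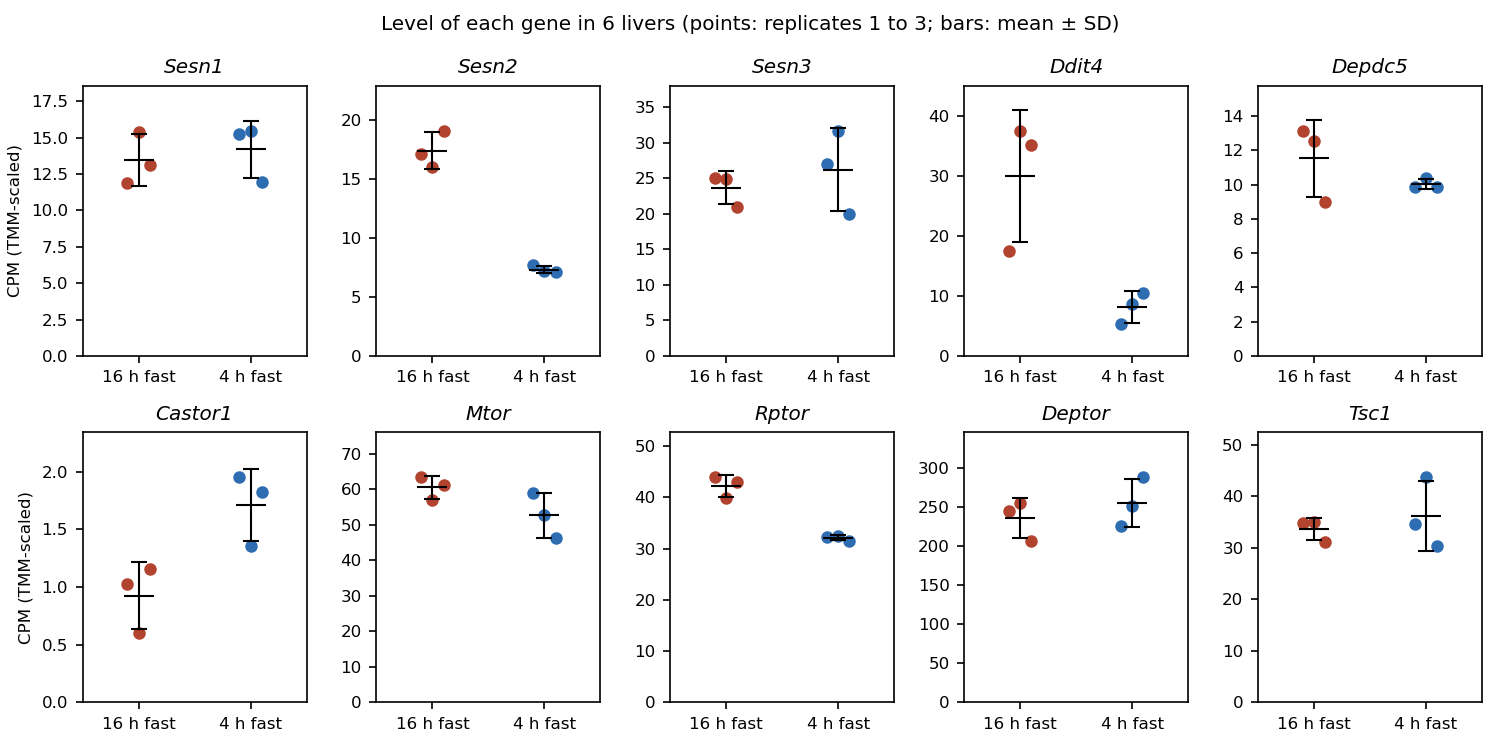
CPM of each of the 10 genes in the 3 livers of the 16 h fast (red) and the 3 of the 4 h fast (blue), with mean ± SD in black and each axis starting at 0. For Sesn2, Ddit4 and Rptor the 16 h livers lie above all 4 h livers, and for Castor1 they lie below them. For the other 6 genes the groups overlap. Groups without overlap were seen for 39.4% of all tested genes, in one direction or the other.

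Among the 3 sestrins, which differ in the stress signals that raise them, Sesn2 alone passed the test. Sesn2, the leucine sensor (chromosome 4, 132492032 to 132510501 of GRCm38), was at 17.2, 16.0 and 19.1 CPM after 16 h, against 7.69, 7.22 and 7.10 CPM after 4 h. All 3 livers of the longer fast lay above all livers of the shorter one, and the values within each group were close together. The log2 change was 1.25 ± 0.13 (edgeR adjusted p = 1.09e-04), a fold of 2.37 with a 95% interval from 1.95 to 2.89, and its adjusted p ranked 99 of 13812. Without any single library it stayed between 1.18 and 1.31 and passed each time, including without the 4 h library with lung transcripts (1.24).

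Sesn1, a known p53 target (chromosome 10, 41809935 to 41908424), had 11.9, 15.4 and 13.1 CPM at 16 h and 15.2, 15.5 and 11.96 CPM at 4 h. The groups covered almost the same range. Its log2 change was -0.08 ± 0.15 (edgeR adjusted p = 0.747), with a 95% interval of the fold from 0.756 to 1.19. Sesn3, known as a FOXO target (chromosome 9, 14275067 to 14333101), had 25.1, 24.9 and 20.96 CPM at 16 h and 27.0, 31.6 and 20.0 CPM at 4 h. The 4 h livers bracketed all 16 h livers, with the lowest value in the library that carried lung transcripts. The log2 change of Sesn3 was -0.15 ± 0.16 (edgeR adjusted p = 0.554), with a 95% interval of the fold from 0.710 to 1.15. That change was -0.29 without the library with lung transcripts (edgeR adjusted p = 0.0892) and 0.026 without 4 h replicate 2 (0.930). A doubling of Sesn1 or Sesn3 lies outside these intervals.

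The share of Sesn2 in the sestrin RNA, which restates the levels above, was higher in every liver of the longer fast. Per kilobase of exon, Sesn2 made up 51.6%, 45.6% and 54.1% of the summed sestrin RNA after 16 h, against 28.3%, 25.8% and 32.1% after 4 h. The means were 50.4 ± 4.4% and 28.8 ± 3.2% (SD, n = 3 each), and the groups did not overlap. The size of the share depends on the length used. With the longest transcript, Sesn3 had 2.59 and 2.87 CPM per kb after 16 h and 4 h, in place of 1.55 and 1.72. A two-sided exact permutation test gave p = 0.1, the smallest that 3 against 3 livers allows (0.15 adjusted over 3 ratios, which were chosen after the values were seen).

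Castor1, the arginine sensor that also binds GATOR2 (chromosome 11, 4218225 to 4222409), was the scarcest of the 10 by counts. It had 1.02, 0.603 and 1.15 CPM after 16 h, against 1.95, 1.35 and 1.83 CPM after 4 h. These values rest on 23, 10 and 28 counts after 16 h and 53, 21 and 35 counts after 4 h. Every 16 h liver was below every 4 h liver, as was the case in one direction or the other for 39.4% of all tested genes. The log2 change of -0.87 ± 0.32 did not pass (edgeR adjusted p = 0.0813, unadjusted p = 0.0196; 95% interval of the fold 0.337 to 0.891), and none of the alternatives brought it past the threshold, with adjusted p from 0.0671 to 0.231.

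Depdc5, the GATOR1 subunit on the receiving end of these sensors (chromosome 5, 32863701 to 32994236), did not pass. It was at 13.1, 12.5 and 8.98 CPM after 16 h and at 9.86, 10.4 and 9.87 CPM after 4 h. In 2 of the 16 h livers it was above, and in 1 below, all the 4 h livers. The log2 change was 0.20 ± 0.16 (edgeR adjusted p = 0.409; 95% interval of the fold 0.902 to 1.46).

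**Figure D2:**
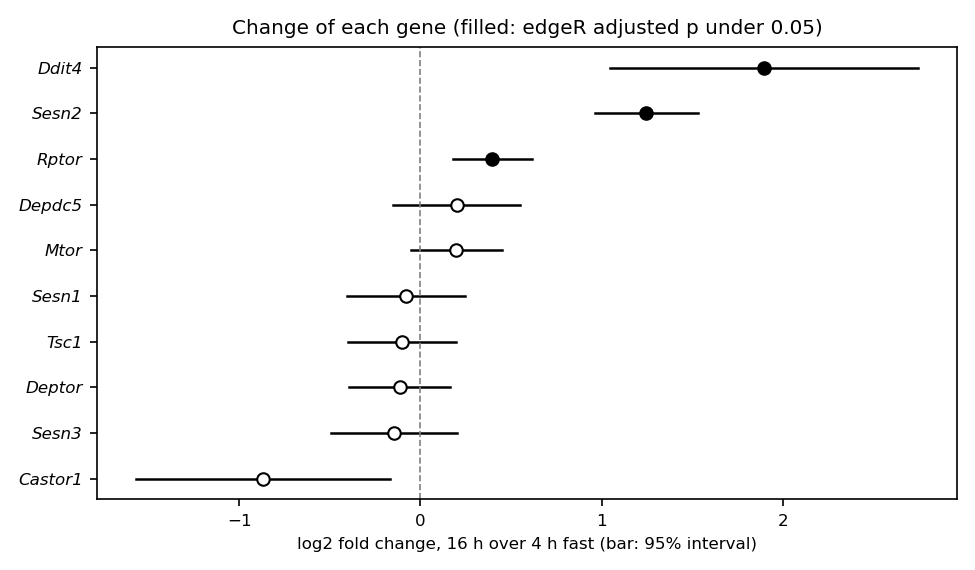
Log2 fold change of the 10 genes, 16 h over 4 h fast, with 95% intervals from the edgeR fit. Filled points passed the test (Ddit4 1.90, Sesn2 1.25, Rptor 0.40), and the interval of Castor1 lies below 0 although its adjusted p of 0.0813 did not pass.

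Ddit4 had the largest change of the 10 genes and the widest spread relative to its mean. Ddit4 (chromosome 10, 59949669 to 59951834) is induced by glucocorticoids, low oxygen and energy stress and acts on the TSC complex. It was at 17.4, 37.5 and 35.1 CPM after 16 h, against 5.26, 8.64 and 10.5 CPM after 4 h. The groups did not overlap, and replicate 1 was the lowest of its group after each fast. The log2 change was 1.90 ± 0.36 (edgeR adjusted p = 0.0125), a fold of 3.72 with a 95% interval from 2.07 to 6.71. It no longer passed when 4 h replicate 2 was left out (log2 change 1.97, edgeR adjusted p = 0.0793) or when 4 h replicate 3 was, the library with lung transcripts (2.16, 0.0698), while the change itself stayed between 1.66 and 2.18 without any single library. Over all alternatives its adjusted p ran from 4.98e-10 with DESeq2 to 0.0793.

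Tsc1, the scaffold subunit of the TSC complex through which DDIT4 acts (chromosome 2, 28641228 to 28691167), did not pass. It was at 34.8, 34.9 and 31.2 CPM at 16 h and 34.7, 43.7 and 30.3 CPM at 4 h. The 4 h livers spread more widely than the 16 h livers and enclosed them. The log2 change was -0.10 ± 0.14 (edgeR adjusted p = 0.631; 95% interval of the fold 0.757 to 1.14).

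Of the complex itself, Rptor rose modestly, whereas Mtor and Deptor did not pass. Rptor, which encodes the subunit raptor that brings substrates to the kinase (chromosome 11, 119602905 to 119899576), was at 43.9, 39.8 and 43.0 CPM after 16 h, against 32.2, 32.5 and 31.5 CPM after 4 h. The 4 h livers were almost equal to each other and all lay below the 16 h livers. The log2 change was 0.40 ± 0.10 (edgeR adjusted p = 0.0175; 95% interval of the fold 1.13 to 1.53). It no longer passed with 16 h replicate 1 (edgeR adjusted p = 0.0711) or 16 h replicate 3 (0.0760) left out, with a log2 change of 0.38 and 0.39, and still passed without the 4 h library with lung transcripts (0.40, 0.00814). Exons of the antisense gene Rptoros cover 0.62% of its exon bases.

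Mtor, the kinase (chromosome 4, 148448611 to 148557683), had 63.3, 57.0 and 61.2 CPM at 16 h and 58.9, 52.8 and 46.3 CPM at 4 h. In 2 of the 16 h livers it was above all 4 h livers, and the other lay within their range. The log2 change was 0.20 ± 0.11 (edgeR adjusted p = 0.245; 95% interval of the fold 0.966 to 1.36). Deptor, an inhibitory partner of mTOR (chromosome 15, 55112317 to 55259271), had 245, 256 and 207 CPM at 16 h and 226, 251 and 288 CPM at 4 h. The groups overlapped, and the highest value was that of the library with lung transcripts. Its log2 change was -0.11 ± 0.13 (edgeR adjusted p = 0.562; 95% interval of the fold 0.762 to 1.12), and without that library -0.0069.

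Within libraries, the ratio of Rptor to Mtor per kilobase of exon was 0.520, 0.524 and 0.528 after 16 h, against 0.410, 0.462 and 0.511 after 4 h. All 16 h ratios were above all 4 h ratios (two-sided exact permutation p = 0.1, the smallest possible, 0.15 adjusted over the 3 ratios). The size of the ratio depends on the length used. With the longest transcript, Rptor had 6.41 and 4.87 CPM per kb after 16 h and 4 h, and Mtor 7.06 and 6.15. The ratio of Deptor to Mtor was 4.41, 5.11 and 3.85 after 16 h and 4.38, 5.42 and 7.08 after 4 h, with overlapping groups (two-sided exact permutation p = 0.3, 0.3 adjusted).

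Per kilobase of exon, which compares genes only approximately, Deptor was the most abundant of the 10 after each fast. It reached 26.6 ± 2.9 CPM per kb after 16 h and 28.8 ± 3.5 CPM per kb after 4 h (SD, n = 3 each). Ddit4 ranked 2 after 16 h with 17.1 ± 6.2 CPM per kb and 3 after 4 h with 4.63 ± 1.51 CPM per kb, where its range overlapped those of Mtor above it and Sesn1 below it. Mtor itself was at 5.98 ± 0.32 and 5.21 ± 0.62 CPM per kb after 16 h and 4 h.

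Sesn2 ranked 4 of 10 after 16 h and 7 of 10 after 4 h. It was at 5.02 ± 0.45 CPM per kb after 16 h, above the range of Sesn1 (3.39 ± 0.45) and Sesn3 (1.55 ± 0.15), and at 2.11 ± 0.09 CPM per kb after 4 h, below the range of Sesn1 (3.57 ± 0.49) and overlapping that of Sesn3 (1.72 ± 0.38). Rptor had 3.14 ± 0.16 and 2.38 ± 0.04 CPM per kb after 16 h and 4 h, and Tsc1 2.85 ± 0.18 and 3.06 ± 0.58. The scarcest were Depdc5, with 0.980 ± 0.191 and 0.852 ± 0.025 CPM per kb after 16 h and 4 h, and Castor1, with 0.588 ± 0.183 and 1.09 ± 0.20. Neighbours in this order whose ranges overlapped were Sesn1 and Rptor after 16 h, and after 4 h Mtor and Ddit4, Ddit4 and Sesn1, Sesn1 and Tsc1, Sesn2 and Sesn3, and Castor1 and Depdc5. The order depends on the length used. With the longest transcript, Rptor had 6.41 and 4.87 CPM per kb after 16 h and 4 h, Sesn2 ranked 5 after 16 h and 8 after 4 h, and Ddit4 ranked 2 after 16 h and 5 after 4 h.

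**Figure D3:**
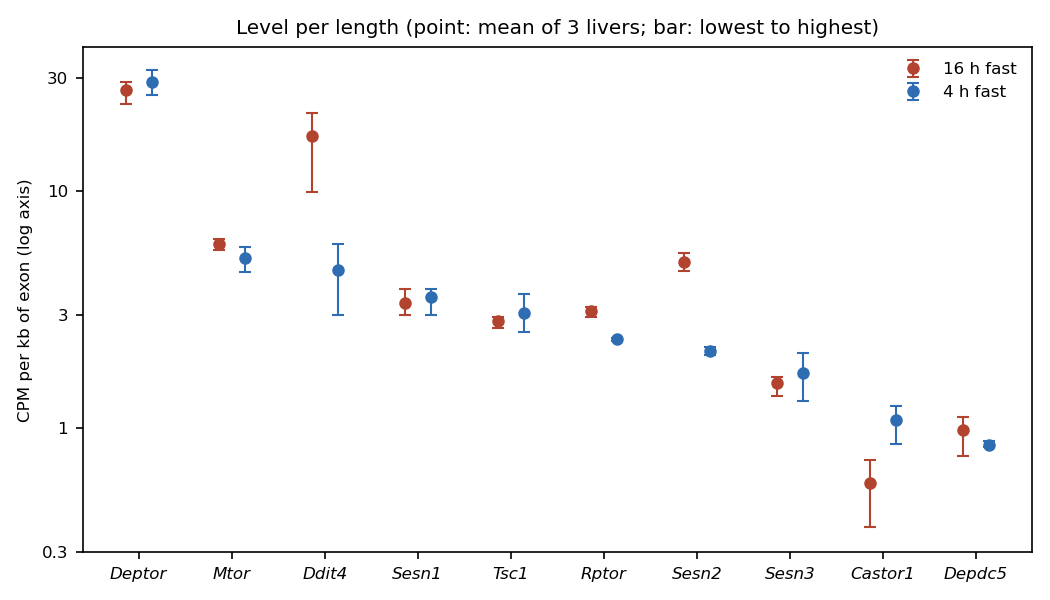
Level per kilobase of exon on a log axis for the 16 h fast (red) and the 4 h fast (blue), with the mean of 3 livers and a bar from the lowest to the highest. Deptor leads after each fast, and Ddit4 stands at 17.1 CPM per kb after 16 h against 4.63 after 4 h.

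The other genes of the pathway moved in both directions. Of 65 tested genes in 6 lists of mTORC1 partners, sensors, inputs and effectors, 8 were higher, 8 lower and 49 did not pass, shares of 12.31% in each direction beside 9.18% and 9.51% of all genes. Their median log2 change was 0.03. The gene Kics2 on the sensor list was not found under its symbol, and Rragb had too few counts to be tested. Genes named below beyond the smallest adjusted p in each direction and the highest level of a list were chosen after their values were seen.

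Around GATOR, 2 of 12 tested genes were higher and 1 lower (median 0.06). These are shares of 16.67% and 8.33%, beside 9.18% and 9.51% of all genes. Mios, a GATOR2 subunit of the complex that sestrins and CASTOR1 bind, rose 1.67-fold to 18.7 ± 1.6 CPM after 16 h, against 11.2 ± 0.7 CPM after 4 h (log2 change 0.74 ± 0.12, edgeR adjusted p = 0.00205). Kptn, a subunit of KICSTOR, which ties GATOR1 to the lysosome, fell to 10.7 ± 0.4 CPM, against 15.3 ± 1.8 CPM after 4 h (-0.52 ± 0.13, edgeR adjusted p = 0.0191). The most abundant gene of the list was Sec13, at 42.7 ± 4.2 and 46.2 ± 6.9 CPM after 16 h and 4 h (-0.11 ± 0.13). Mios kept its call without any single library, and the call of Kptn was lost without any one of the 16 h libraries (edgeR adjusted p = 0.0783, 0.0592 and 0.0759). The number higher was 1 without 4 h replicate 1, without each 16 h library in turn and with plain library totals.

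On the lysosomal surface, 4 of 12 tested genes of the Rag and Ragulator list were lower and none higher (median -0.29). By unadjusted p under 0.05, 1 was higher, and by DESeq2 none was. The share lower was 33.33%, beside 9.51% lower and 9.18% higher of all genes. Fnip2, a partner of folliculin, fell to 18.8 ± 3.1 CPM after 16 h, against 33.2 ± 2.2 CPM after 4 h (-0.82 ± 0.13, edgeR adjusted p = 0.00178). Flcn, folliculin itself, which with its partners acts on the Rag GTPases RagC and RagD, fell to 38.5 ± 2.4 CPM, against 57.3 ± 5.3 CPM after 4 h (-0.57 ± 0.11, edgeR adjusted p = 0.00423). The Ragulator subunits Lamtor2 (-0.49 ± 0.14) and Lamtor4 (-0.56 ± 0.17) were the other 2, at 52.5 ± 5.4 and 32.8 ± 2.2 CPM after 16 h, against 73.7 ± 14.1 and 48.3 ± 13.5 CPM after 4 h. Rragd, the gene of RagD, was at 2.03 ± 0.71 CPM at 16 h and 1.12 ± 0.37 CPM at 4 h without passing (0.84 ± 0.35, edgeR adjusted p = 0.111). The highest 4 h value of both was in replicate 3, the library with lung transcripts (89.3 CPM for Lamtor2 and 63.9 CPM for Lamtor4), without which the log2 changes were -0.32 and -0.29 and still passed. Without any one of the 16 h libraries 2 of the list were lower, and the calls of Lamtor2 and Lamtor4 were the lost ones (edgeR adjusted p from 0.0622 to 0.139).

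Among 8 partners of mTOR in its complexes, 2 were lower and none higher (median -0.07). By unadjusted p under 0.05, 1 was higher, and 1 by DESeq2. The share lower was 25%, beside 9.51% lower and 9.18% higher of all genes. Telo2, which helps to assemble the kinase, fell to 5.19 ± 0.49 CPM after 16 h, against 7.72 ± 0.60 CPM after 4 h (-0.57 ± 0.16, edgeR adjusted p = 0.0288). Prr5, a subunit of mTORC2, was the other, at 4.15 ± 0.65 CPM at 16 h and 6.32 ± 0.78 CPM at 4 h (-0.60 ± 0.19, edgeR adjusted p = 0.0435). Mapkap1, also of mTORC2, was at 47.3 ± 0.8 and 38.6 ± 2.5 CPM after 16 h and 4 h without passing (0.30 ± 0.10, edgeR adjusted p = 0.0602), and passed with DESeq2 (adjusted p = 0.0490) and without 4 h replicate 3 (edgeR adjusted p = 0.0429). Akt1s1, whose product PRAS40 inhibits mTORC1, led in level with 60.3 ± 4.0 and 58.9 ± 11.2 CPM after 16 h and 4 h (0.03 ± 0.14). The call of Telo2 was lost without each library in turn (edgeR adjusted p from 0.0531 to 0.113) and that of Prr5 without each except 4 h replicate 3, and with DESeq2 (0.0602), which left 0 lower in the list when any library other than 4 h replicate 3 was left out.

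None of 5 tested genes of the TSC complex, RHEB and REDD2 list passed with edgeR, beside 18.7% of all genes. By unadjusted p under 0.05, 1 was higher, and 1 by DESeq2. Tsc2, the catalytic partner of Tsc1, was at 54.1 ± 2.1 CPM at 16 h and 43.0 ± 4.9 CPM at 4 h (0.33 ± 0.11, edgeR adjusted p = 0.0599), and passed with DESeq2 (adjusted p = 0.0471). Rheb, the GTPase that activates mTORC1, was at 55.7 ± 1.8 and 58.6 ± 2.0 CPM after 16 h and 4 h (-0.07 ± 0.10). Rhebl1, a relative of Rheb, was at 0.628 ± 0.420 CPM at 16 h and 1.22 ± 0.16 CPM at 4 h (-0.92 ± 0.43, edgeR adjusted p = 0.160). Another gene covers 17.99% of its exon bases. It passed as lower without 16 h replicate 1 (edgeR adjusted p = 0.0370).

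Of 16 insulin and energy inputs, 3 were higher and none lower (median 0.31, with none lower by unadjusted p under 0.05 or by DESeq2). The share higher was 18.75%, beside 9.18% higher and 9.51% lower of all genes. Prkaa2, a catalytic subunit of the energy sensor AMPK, rose to 66.0 ± 4.1 CPM after 16 h, against 44.4 ± 7.0 CPM after 4 h (0.57 ± 0.13, edgeR adjusted p = 0.00942). The kinase Akt1 (0.44 ± 0.13, edgeR adjusted p = 0.0306) and the insulin receptor substrate Irs2 (0.75 ± 0.22, edgeR adjusted p = 0.0433) were the others, and Irs2 overlapped between the groups. Insr, the insulin receptor and the most abundant of the list, was at 156 ± 10.2 and 124 ± 15.3 CPM after 16 h and 4 h without passing (0.33 ± 0.12, edgeR adjusted p = 0.0743), but passed with DESeq2 (adjusted p = 0.0415). Pik3ca, a catalytic subunit of PI3 kinase, had a log2 change of -0.10 ± 0.10. The call of Akt1 was lost without each library except 4 h replicate 3 (edgeR adjusted p up to 0.107), and that of Irs2 without 4 h replicate 1 or 3 or 16 h replicate 1 or 3 (up to 0.222) and with plain library totals (0.0682). The number higher was 1 with replicate 1 of either fast or 16 h replicate 3 left out, 2 with plain library totals and 7 without a filter on low counts.

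Downstream, 3 of 12 effectors were higher and 1 lower (median 0.05). These are shares of 25% and 8.33%, beside 9.18% and 9.51% of all genes. Eif4ebp3, of the family of translation repressors that mTORC1 phosphorylates, rose to 5.72 ± 2.47 CPM after 16 h, against 1.79 ± 0.61 CPM after 4 h (1.66 ± 0.34, edgeR adjusted p = 0.00721), but 67.34% of its exon bases overlap another gene, so its value is uncertain. Ulk1, the autophagy kinase that mTORC1 inhibits, fell to 84.2 ± 9.8 CPM, against 121 ± 6.7 CPM after 4 h (-0.52 ± 0.11, edgeR adjusted p = 0.00928). Rps6kb1, the S6 kinase and a main substrate, rose to 45.6 ± 4.4 CPM, against 32.6 ± 2.5 CPM after 4 h (0.48 ± 0.11, edgeR adjusted p = 0.0127), and Larp1, a regulator of ribosomal protein translation, was also higher (0.35 ± 0.11, edgeR adjusted p = 0.0406). Eif4ebp2 was the most abundant, at 260 ± 11.2 and 295 ± 18.1 CPM after 16 h and 4 h (-0.18 ± 0.10, edgeR adjusted p = 0.252). Ulk1 no longer passed with 16 h replicate 1 (edgeR adjusted p = 0.0560) or 3 (0.0543) left out, nor did Larp1 without each library except 4 h replicate 3 (up to 0.121). Without 16 h replicate 2 the call of Rps6kb1 was lost as well (0.0720), which left 1 effector higher.

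**Figure D4:**
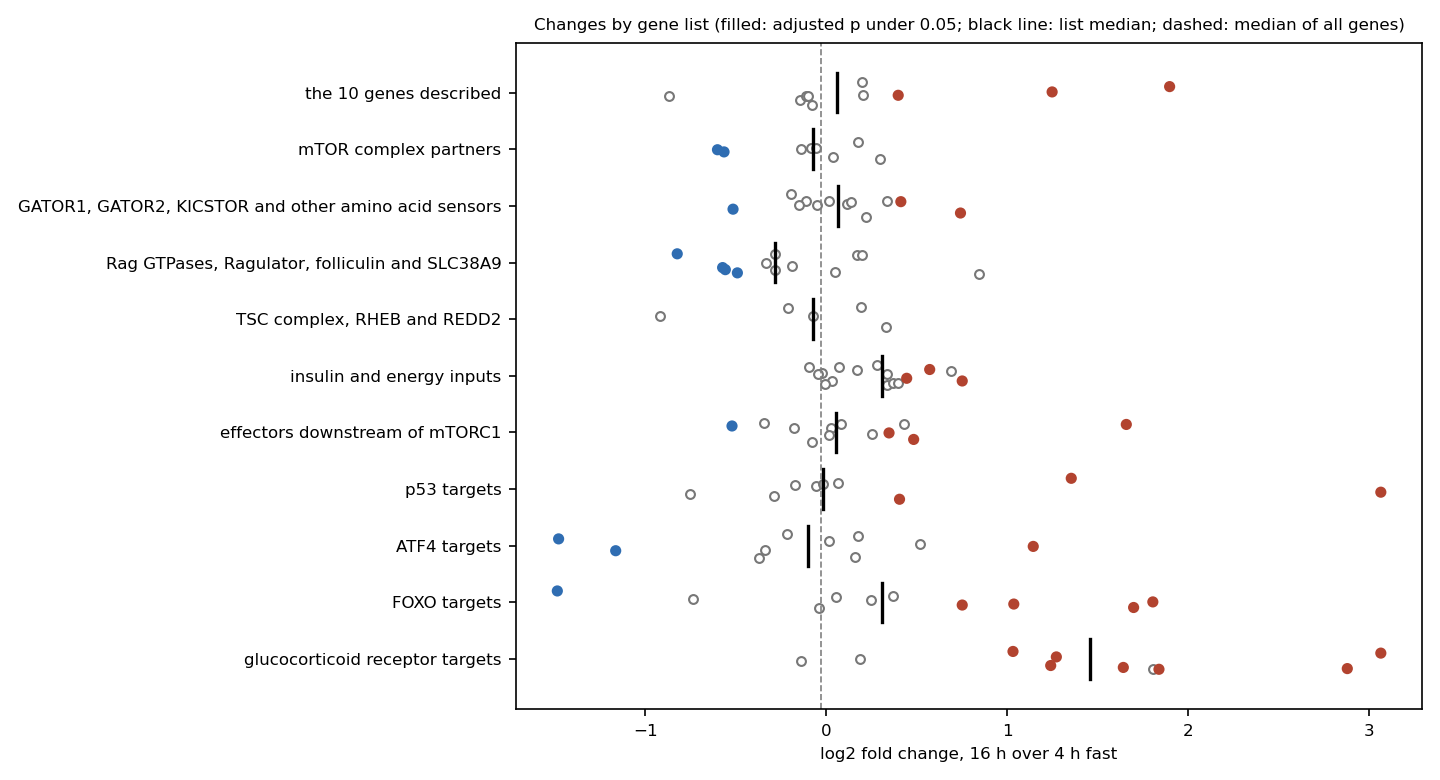
Log2 fold change, 16 h over 4 h fast, of each tested gene by list, with filled points for genes that passed (red higher, blue lower), a black line at the list median and a dashed line at the median of all genes. The Rag and Ragulator list holds 4 blue points and no red one, and the glucocorticoid receptor targets 7 red points and a median of 1.46. Of all tested genes 9.18% were higher and 9.51% lower.

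Sestrins and Ddit4 are known to be induced by p53, ATF4, FOXO factors and the glucocorticoid receptor. For this reason 4 lists of other known targets of these factors were counted beside them. The lists were chosen with earlier results of these data known, and the action of these factors on any gene was not tested. Of 10 glucocorticoid receptor targets 7 were higher and none lower, beside 9.18% higher and 9.51% lower of all tested genes. Their median was 1.46 (none lower by unadjusted p under 0.05 or by DESeq2). Among them Lcn2 rose to 31.7 ± 7.4 CPM after 16 h, against 4.36 ± 1.35 CPM after 4 h (2.88 ± 0.24), and Tat, the most abundant, to 3487 ± 787 CPM, against 1118 ± 279 CPM after 4 h (1.64 ± 0.22). Klf9 was at 199 ± 29.8 and 220 ± 33.1 CPM after 16 h and 4 h without passing (-0.14 ± 0.15). The number higher was 4 without 4 h replicate 2, and 5 without replicate 3 of either fast or without a filter on low counts. Fkbp5, which binds the receptor's chaperone complex, had a log2 change of 1.84 ± 0.38 (edgeR adjusted p = 0.0238) and did not pass in any of these 4 settings (up to 0.147).

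Of 10 FOXO targets 4 were higher and 1 lower (median 0.31), shares of 40% and 10% beside 9.18% and 9.51% of all genes. Igfbp1 rose to 239 ± 12.3 CPM after 16 h, against 68.5 ± 23.3 CPM after 4 h (1.80 ± 0.21, edgeR adjusted p = 4.36e-04), and Pck1, the most abundant, by 1.04 ± 0.14. Gadd45a fell to 1.69 ± 0.37 CPM, against 4.75 ± 1.72 CPM after 4 h (-1.49 ± 0.30, edgeR adjusted p = 0.00578). Another gene covers 19.1% of its exon bases. Without 4 h replicate 2, 2 FOXO targets were lower. The number higher was 3 without replicate 1 or 3 of either fast and with plain library totals, and 5 without a filter on low counts. Without 4 h replicate 3, Pdk4 (edgeR adjusted p = 0.0532) and Irs2 (0.222) no longer passed, while another gene of the list did.

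Of 9 tested p53 targets 3 were higher and none lower, beside 9.18% and 9.51% of all genes (median -0.02, with 1 lower by unadjusted p under 0.05 and none by DESeq2). Trp53inp1 rose to 133 ± 22.4 CPM after 16 h, against 52.0 ± 8.6 CPM after 4 h (1.35 ± 0.16, edgeR adjusted p = 2.14e-04). The others were Cdkn1a, which also stands on the glucocorticoid list, and Mdm2, with log2 changes of 3.06 ± 0.56 and 0.40 ± 0.11. Cdkn1a no longer passed with 4 h replicate 2 (edgeR adjusted p = 0.105) or 3 (0.0677) left out or without a filter on low counts (0.0724), nor Mdm2 with each 16 h library left out in turn (0.0614, 0.114 and 0.0712). Phlda3 was at 0.684 ± 0.091 and 1.17 ± 0.12 CPM after 16 h and 4 h without passing (-0.75 ± 0.32, edgeR adjusted p = 0.124). Sesn1, itself a p53 target, had a log2 change of -0.08.

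Of 10 tested ATF4 targets 1 was higher and 2 lower (median -0.10), shares of 10% and 20% beside 9.18% and 9.51% of all genes. Atf5, a transcription factor and the most abundant of this list, rose to 616 ± 39.5 CPM after 16 h, against 279 ± 21.3 CPM after 4 h (1.14 ± 0.11, edgeR adjusted p = 7.37e-05). Nupr1 fell to 0.672 ± 0.174 CPM, against 1.96 ± 0.72 CPM after 4 h (-1.48 ± 0.37, edgeR adjusted p = 0.0179), and Chac1, which breaks down glutathione, to 2.08 ± 0.98 CPM, against 4.58 ± 0.55 CPM (-1.16 ± 0.30, edgeR adjusted p = 0.0199). The number lower was 0 without 16 h replicate 1, where Nupr1 had an adjusted p of 0.0579 and Chac1 of 0.0674 (edgeR). It was 1 without 4 h replicate 2 or 16 h replicate 2, which cost the call of Nupr1 (0.0584 and 0.0730), and without 16 h replicate 3, which cost that of Chac1 (0.0838).

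Genes were then ranked by how closely their profile over the 6 libraries followed that of a sestrin or Ddit4, as the Euclidean distance between centred log2 CPM values, over 11331 protein-coding genes whose CPM averaged 1 or more. Nearest to Ddit4 were Slc41a3 (distance 0.473), Tat (0.533) and Cyp39a1 (0.644), where the median of all genes was 2.57. Slc41a3, of a family of magnesium transporters, was at 3.65, 5.54 and 5.85 CPM after 16 h, against 0.883, 1.68 and 1.51 CPM after 4 h. Like Ddit4, these 3 genes had their lowest value of each group in replicate 1. They were picked by these same 6 values, so the shared order comes with the choice. Cyp39a1 did not pass without 4 h replicate 3 (edgeR adjusted p = 0.0871).

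Nearest to Sesn2 were Atf5 (0.219), Arl4a (0.222) and Nfil3 (0.253), against a median distance of 1.59. Atf5 was at 639, 571 and 639 CPM after 16 h, against 292, 254 and 291 CPM after 4 h. Replicate 2 of the 16 h fast was the lowest of its group for Sesn2 and for all 3 neighbours, which were picked by these same values. Nearest to Sesn1 were Nup54 (0.091), Tank (0.102) and Abcg8 (0.117), and nearest to Sesn3 Zswim5 (0.086), Fgd4 (0.094) and Pcf11 (0.110), with medians of 0.663 and 0.764. None of these 6 passed the test, and their short distances go with small changes in all libraries.

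**Figure D5:**
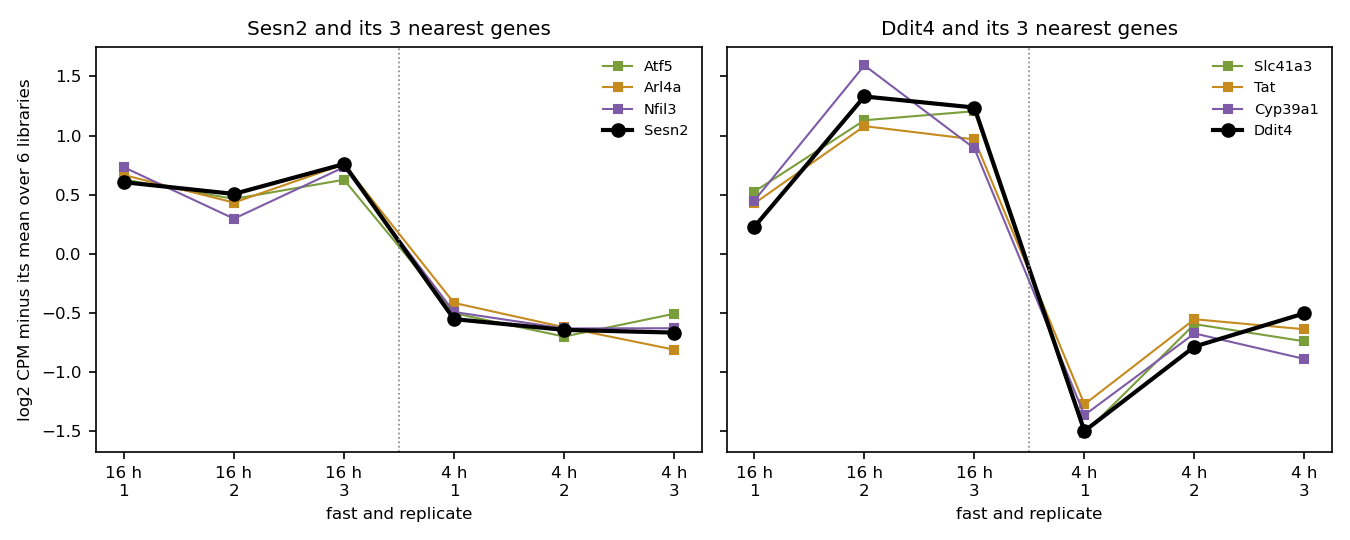
Log2 CPM minus its mean over the 6 libraries for Sesn2 (left) and Ddit4 (right) in black, with the 3 nearest genes of each in colour, 16 h livers on the left of the dotted line and 4 h livers on the right. Ddit4 and its neighbours, picked by these same values, share a dip in replicate 1 of each fast, which Sesn2 does not show.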

How the data were processed

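Liver RNA was sequenced in 6 libraries, 3 per fast, and each library is called a liver here. No label ties a library to an animal, so p-values weigh each change against the spread between these samples. Per the labels (the series' design text), the authors trimmed reads with Trimmomatic, aligned them with STAR to GRCm38 (mm10) and counted them with HTSeq; their own comparison used DESeq2, and no source used here gives versions, annotation release or strand setting. What the authors deposited are raw counts, whole numbers for each Ensembl gene identifier. The 5 summary lines of each table name no gene and were left out: reads outside genes made up 6.44% to 7.14% of tallied reads, and reads hitting several genes 5.78% to 6.60%. Symbols, positions and exon lengths came from GENCODE M21 (GRCm38), which held 99.57% of the identifiers, and promoters from RefSeq (GRCm38.p6).

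The test was that of edgeR 4.0.16 under R 4.3.3 (filterByExpr, TMM, robust quasi-likelihood fit with the fast as its only term, Benjamini-Hochberg adjustment over 13812 genes, two-sided). The biological coefficient of variation was 14.3%. CPM use TMM-scaled totals. The procedure was tested on simulated data. Alternatives were DESeq2 1.42.0, other normalisations, 2 other filters, a replicate block and leaving out each library. Chi-square per degree of freedom between libraries of a group was 19.0 to 76.1, so no pair was counted as 1 library. The 10 genes, the lists and the motifs were chosen with earlier results of these data known. All 10 genes were named, with the member of each other list that had the smallest adjusted p in each direction and the one with the highest CPM, and the 3 nearest genes of 4 members. A gene of the sensor list is counted but not reported here.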

Additional observations from a re-analysis of the deposited data

How the results depend on the processing

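The direction of Sesn2, Ddit4 and Rptor was the same under every alternative run, and all 3 passed with DESeq2, both other normalisations and both other filters. Without single libraries 2 to 3 of the 10 genes were higher and 0 lower, with log2 changes of 1.18 to 1.31 for Sesn2, 1.66 to 2.18 for Ddit4 and 0.38 to 0.44 for Rptor. Small changes crossed 0: -0.18 to 0.013 for Sesn1, -0.29 to 0.026 for Sesn3, -0.20 to 0.070 for Tsc1, and, among other genes named, -0.053 to 0.21 for Akt1s1, -0.20 to 0.028 for Sec13, -0.13 to 0.070 for Abcg8, -0.32 to 0.013 for Fgd4 and -0.19 to 0.033 for Tank. Over all genes 671 to 1594 were higher and 696 to 1393 lower without single libraries, the low counts being those without a 16 h library (818, 681 and 671 higher, 823, 715 and 696 lower without replicate 1, 2 and 3). In the other lists 14 to 20 were higher and 4 to 10 lower, against 21 and 11 with all libraries. With the longest transcript as length, the mean level over 6 libraries was 6.61 in place of 5.60 CPM per kb for Mtor, 4.54 in place of 2.95 for Tsc1, 5.64 in place of 2.76 for Rptor, 2.73 in place of 1.63 for Sesn3 and 1.31 in place of 0.916 for Depdc5. The labels do not say whether replicate numbers pair the samples. Deviations of same-numbered libraries correlated at 0.088, 0.093 and 0.045, and those of differently numbered libraries at -0.138 to 0.066. With 3 libraries per fast, such values cannot decide whether the samples are paired. With the replicate block, 1352 genes were higher and 1396 lower, and the 10 genes kept their calls (Sesn2 1.25, Ddit4 1.86, Rptor 0.40). The edgeR adjusted p of Ddit4 was then 4.24e-05. Under the block 6 insulin and energy inputs were higher in place of 3, Insr among them (adjusted p = 0.0440), 1 mTOR partner was lower in place of 2, and 5 glucocorticoid receptor targets were higher in place of 7. Irs2 (0.0769), Prr5 (0.0530), Cdkn1a (0.108) and Fkbp5 (0.118) no longer passed. Of the 10 genes, Castor1, with 10 to 53 counts a library, is the most limited by depth. Intervals are those of the fold change and rest on the spread between these 6 livers.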
